A study of Caenorhabditis elegans with 2 samples.

Results

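The 10 genes described here encode the cytosolic Hsp90 of Caenorhabditis elegans, 3 of its cochaperones, and chaperones of the cytosol, the endoplasmic reticulum (ER) and the mitochondria. They are hsp-90, daf-41, sti-1, cdc-37, hsp-1, hsp-110, hsp-3, hsp-4, hsp-6 and hsp-60, out of 19973 protein-coding genes. The members were selected on chaperone function together with measured values, since hsp-90 holds the region of highest signal in the pooled list. Their ranks are therefore given as descriptions with no test. Every region was counted whose summit lay in the gene or up to 1500 bp upstream of its annotated 5′ end, which gave 26 of 30000 pooled regions, 26 of 30000 for replicate 1 and 29 of 30000 for replicate 2.

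The regions come from ChIP-seq with an anti-GFP antibody against ALR-1, the aristaless-related homeodomain protein of the worm. The animals were strain OP362, unc-119(tm4063) III with the integrated insertion wgIs362, in which ALR-1 carries a GFP-FLAG tag at its C terminus. They were whole L1 larvae of mixed sex, 6 hours old, starved after bleaching, in 1 group of 2 biological replicates. Whole larvae mix cells that make ALR-1 with cells that do not, and no untagged or untreated animals were analysed here, so the data hold no contrast between conditions. Each region carries the authors' signal, from lists made with a control file, and its rank is its place by that signal in its own list. The authors also passed 182 peaks through an irreproducible discovery rate (IDR) threshold, and these are the 182 highest regions of the pooled list. Depth is unknown from such lists, and a region absent from a list of 30000 need not have a signal of 0, since the lowest signals listed are 42.2 (pooled), 21.8 (replicate 1) and 23.3 (replicate 2).

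Chaperones bind unfolded or partly folded proteins and, in most families, use ATP to release them in a form that can fold. Hsp70 proteins bind short exposed stretches, Hsp90 acts later on a narrower set of clients such as kinases and receptors, and chaperonins such as Hsp60 enclose the client in a ring. The constitutive members are among the more abundant proteins of growing cells, and the inducible ones rise through heat shock factor or through the unfolded protein responses of the ER and the mitochondria.

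The sequences below are those at the summits that the ranks turn on, read from the RefSeq genome of the same assembly (WBcel235) on the strand of the gene, 5′ to 3′. The highest region, in hsp-90, is shown over 299 bases and the others over 121. Capitals mark every TAAT or ATTA, the core that homeodomains bind, and every GAANNTTC or TTCNNGAA, the inverted GAA repeats of the heat shock element. The hsp-110, hsp-1 (rank 328) and hsp-60 stretches are coding, like that of hsp-90, while the daf-41 stretch and the hsp-1 stretch of rank 6866 run across an intron and an exon.
hsp-90, rank 1, chrV:14686525-14686823, + strand: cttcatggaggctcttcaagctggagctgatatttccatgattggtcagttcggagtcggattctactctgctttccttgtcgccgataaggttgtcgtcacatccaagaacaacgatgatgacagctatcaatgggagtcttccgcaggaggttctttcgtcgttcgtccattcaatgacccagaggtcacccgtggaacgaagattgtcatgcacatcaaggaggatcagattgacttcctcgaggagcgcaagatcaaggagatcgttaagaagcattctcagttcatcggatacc
hsp-110, rank 256, chrIII:8445759-8445879, - strand: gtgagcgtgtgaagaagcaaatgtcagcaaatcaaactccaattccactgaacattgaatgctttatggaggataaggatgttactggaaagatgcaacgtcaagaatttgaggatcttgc
hsp-1, rank 328, chrIV:17280548-17280668, + strand: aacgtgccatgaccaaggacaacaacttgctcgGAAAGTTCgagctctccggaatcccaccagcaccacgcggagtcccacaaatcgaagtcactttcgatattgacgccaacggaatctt
hsp-60, rank 1161, chrIII:1621554-1621674, + strand: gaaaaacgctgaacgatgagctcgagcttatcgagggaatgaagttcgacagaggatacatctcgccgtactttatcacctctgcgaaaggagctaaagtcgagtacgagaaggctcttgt
daf-41, rank 1015, chrIII:5274003-5274123, - strand: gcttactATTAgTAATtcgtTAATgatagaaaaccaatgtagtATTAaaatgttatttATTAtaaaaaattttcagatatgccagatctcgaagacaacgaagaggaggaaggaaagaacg
hsp-1, rank 6866, chrIV:17279171-17279291, + strand: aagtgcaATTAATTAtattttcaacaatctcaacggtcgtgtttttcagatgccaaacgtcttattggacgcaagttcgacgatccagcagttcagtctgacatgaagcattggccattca
The hsp-90 stretch has 48.5% GC and no capital, so neither a homeodomain core nor a heat shock repeat stands in these 299 bases. The daf-41 stretch has 29.8% GC and 5 cores. The hsp-1 stretch of rank 6866 is the only printed one with TAATTA, the palindrome bound by paired-class homeodomains.

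hsp-90 (WBGene00000915, chromosome V, 14684918 to 14688545, plus strand) encodes the cytosolic Hsp90, an ATP-driven chaperone of signalling proteins. Its highest region had a signal of 204 in the pooled list, where the next highest region of the genome had 175. The same region had a signal of 102 and rank 1 in replicate 1, and a signal of 99.8 and rank 2 in replicate 2. Its 3 summits lay within 17 bp of each other. It is the only region of the 10 genes that was in the highest 182 of both replicates.

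The hsp-90 summit fell inside the coding sequence and not at the start of transcription. The annotation gives hsp-90 a long transcript and a shorter one that begins inside it. The summit, at 14686674, lay 1756 bp from the 5′ end of the long transcript and 514 bp from that of the shorter one. It was in exon 2 of 4 of the shorter transcript, at codon 155 of 702, and the GC content within 100 bp was 49.8%. It also lay in the upstream stretch of C47E8.4, a gene that runs the other way and overlaps the 5′ end of hsp-90.

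The other regions of hsp-90 were low. The second highest, at codon 359, had a pooled signal of 65.5 and rank 6157. The remaining summits were in the first intron at rank 12285 (signal 56.2), which is also coding sequence of C47E8.4, and at codon 599 at rank 22306 (signal 47.1). None of these 3 had a replicate 1 summit within 200 bp, and in replicate 2 they ranked 12385, 7016 and 17985. In the 10 kb on each side there were 7 more pooled regions, of which the highest stood at rank 894.

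**Figure D1:**
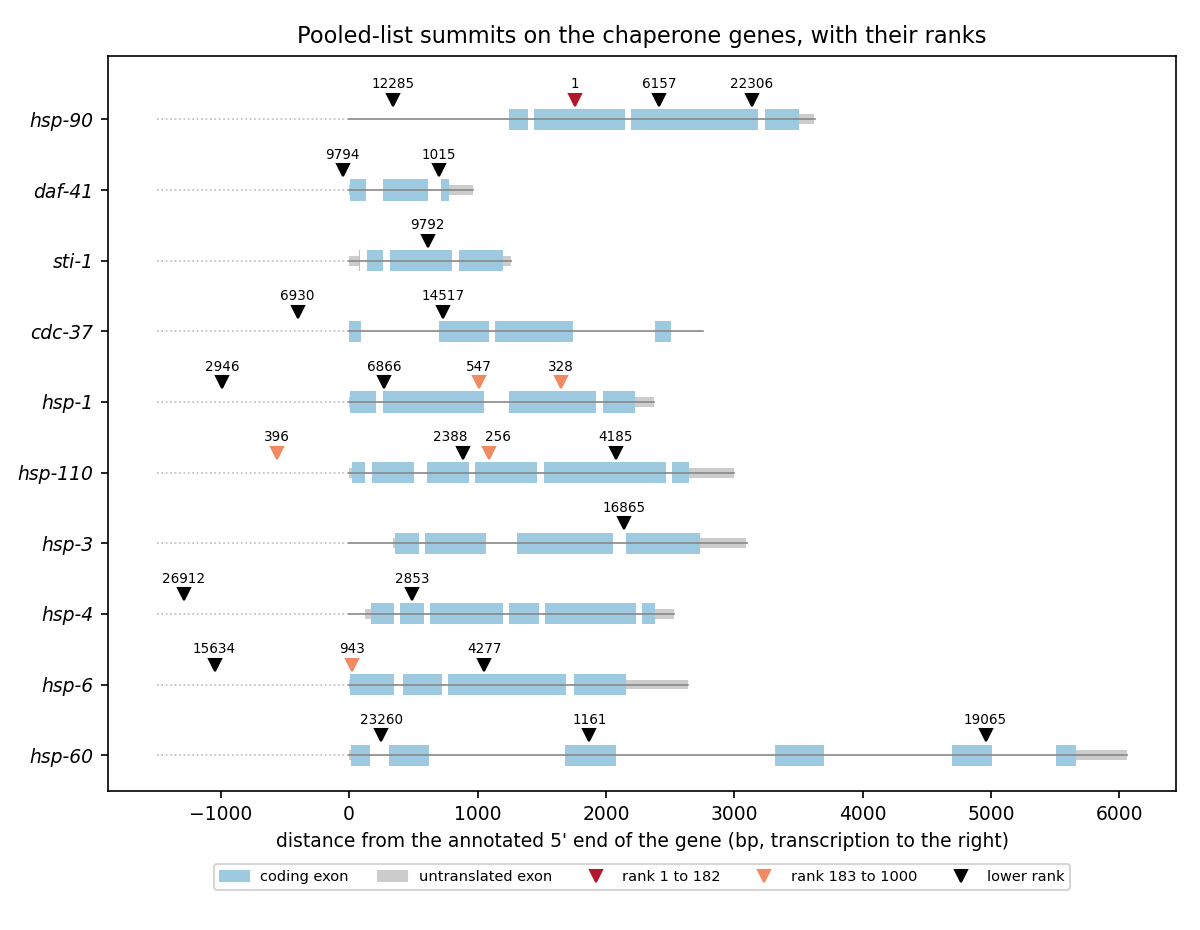
Pooled-list summits on each chaperone gene, by distance from the annotated 5′ end in bp, with the rank of each region printed above its triangle. Boxes are the exons of the transcript with the longest coding sequence, and the dotted line is the 1500 bp upstream; most triangles, including rank 1 in hsp-90, stand over coding boxes.

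The Hsp90 cochaperones ranked well below hsp-90. daf-41 (WBGene00022599, chromosome III, 5273805 to 5274765, minus strand) encodes p23, which stabilises the ATP-bound state of Hsp90. Its highest region, in the last intron at 5274063, had a pooled signal of 87.7 and rank 1015, just outside the highest 1000. That region had a signal of 45.3 in replicate 1 (rank 1146) and 40.8 in replicate 2 (rank 3709). It is the highest pooled region in an intron of the member itself, and its GC content of 32.8% was the lowest of the 26. The other daf-41 region, 50 bp upstream of the 5′ end, ranked 9794 and was matched in replicate 2 alone, at rank 18822. Both daf-41 summits, including that of rank 1015, also lay in the upstream stretches of the genes ztf-8 and toc-1.

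sti-1 (WBGene00019983, chromosome V, 773518 to 774775, plus strand) encodes the homologue of Hop, the adaptor that joins Hsp70 and Hsp90. It held a single pooled region, at codon 144 of 320, with a signal of 59.4 and rank 9792. Replicate 2 had it at rank 8527 (signal 34.4), and the nearest replicate 1 summit was 202 bp away, just beyond the matching distance, in a region of rank 4253 (signal 36.9). Its GC content of 52.7% was the highest of the 26 pooled regions.

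cdc-37 (WBGene00021097, chromosome II, 577837 to 580593, minus strand) encodes Cdc37, the cochaperone that brings protein kinases to Hsp90. Its 2 pooled regions ranked 6930 (signal 64.0) and 14517 (signal 53.8), and the replicates ordered them differently. The region of rank 6930, 402 bp upstream and inside a coding exon of W08F4.3, ranked 2863 in replicate 1 and 26819 in replicate 2. The region of rank 14517, at codon 41 of 403, ranked 782 in replicate 2 (signal 51.4) and had no replicate 1 summit within 200 bp.

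In the pooled list the cytosolic Hsp70 and Hsp110 genes held the highest regions after hsp-90. In replicate 1 the best hsp-110 rank of 1383 was below those of hsp-6, daf-41 and hsp-3, and in replicate 2 the best hsp-1 rank of 1013 was below those of hsp-60, hsp-6 and cdc-37. hsp-1 (WBGene00002005, chromosome IV, 17278959 to 17281330, plus strand) encodes the constitutive cytosolic Hsc70. Its highest region, at codon 467 of 640 in exon 3, had a pooled signal of 101 and rank 328. In replicate 1 its signal was 48.2 (rank 701) and in replicate 2 it was 49.1 (rank 1131). A second region at codon 318 had a pooled signal of 94.9 and rank 547, with ranks of 2431 in replicate 1 and 2363 in replicate 2, the closest by ratio after hsp-4 among the regions matched in both replicates.

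The remaining hsp-1 regions were at codon 73 (pooled rank 6866) and 992 bp upstream (pooled rank 2946). The region at codon 73 ranked 9146 in replicate 1 and 1013 in replicate 2, with the replicate summits 175 bp apart. The upstream region was more even, at 2296 in replicate 1 and 5273 in replicate 2. All 4 pooled regions of hsp-1 were thus matched in both replicates.

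hsp-110 (WBGene00016250, chromosome III, 8443910 to 8446909, minus strand) encodes Hsp110, a nucleotide exchange factor for Hsp70 that is itself related to Hsp70. Its highest pooled region (signal 104, rank 256) lay at codon 292 of 776, and the next (signal 98.5, rank 396) lay 561 bp upstream. Both were high in replicate 2, and in replicate 1 they were lower or unmatched. The coding region had rank 61 and a signal of 70.1 in replicate 2. The nearest replicate 1 summit was 219 bp away, just beyond the matching distance, in an overlapping region of rank 1383. The upstream region had rank 41 and a signal of 72.4 in replicate 2, against rank 8035 and a signal of 32.5 in replicate 1.

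The upstream region of hsp-110 lies in an intron of rpn-3, near the start of that gene, which encodes a subunit of the proteasome regulatory particle. The 2 lower hsp-110 regions were both coding and ran the other way between replicates. That at codon 239 (pooled rank 2388), which overlaps the region of pooled rank 256, ranked 1383 in replicate 1 and 7672 in replicate 2. That at codon 603 (pooled rank 4185) ranked 1606 in replicate 1 and 26784 in replicate 2.

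The ER members, hsp-3 and hsp-4, both encode BiP, the Hsp70 of the ER lumen, and their best pooled ranks were 16865 (hsp-3) and 2853 (hsp-4). hsp-3 (WBGene00002007, chromosome X, 6089028 to 6092124, minus strand) held 1 pooled region, in an intron, with a signal of 51.6 and rank 16865. Its replicate 1 counterpart, 70 bp away, ranked 1218 (signal 45), and replicate 2 had no summit within 200 bp. Replicate 2 had another summit in a coding exon of hsp-3, at rank 18058. hsp-3 had the lowest best rank of the 10 genes in the pooled list and in replicate 2.

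hsp-4 (WBGene00002008, chromosome II, 7350112 to 7352645, minus strand) is the BiP gene that the unfolded protein response induces most clearly. Its highest region, at codon 92 of 657, had a pooled signal of 75.2 and rank 2853. It ranked 8440 in replicate 1 (signal 32.1) and 8469 in replicate 2 (signal 34.5), the closest ranks by ratio among the regions matched in both replicates. The other region, 1287 bp upstream and in an intron of haf-2, had pooled rank 26912.

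The mitochondrial members were intermediate by their best ranks in the pooled list. hsp-6 (WBGene00002010, chromosome V, 4824124 to 4826760, minus strand) encodes the mitochondrial Hsp70, which pulls imported proteins into the matrix. Its highest pooled region (signal 88.6, rank 943) had its summit at codon 6 of 657, 22 bp into the gene, the only one of the 26 within 50 bp downstream of a 5′ end. The region also lay in the upstream stretch of C37H5.5, 622 bp from the start of that gene. It ranked 2966 in replicate 1 (signal 39.3), where the summit was 4 bp away. In replicate 2 the nearest summit was 122 bp away and ranked 709 (signal 52.0). The region at codon 311 (pooled rank 4277) ranked 813 in replicate 1 and 3884 in replicate 2, so the replicates placed the highest hsp-6 region at different points of the gene.

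The lowest hsp-6 region, 1048 bp upstream and in a coding exon of C37H5.5, had pooled rank 15634 and was matched in replicate 2 alone. hsp-60 (WBGene00002025, chromosome III, 1619742 to 1625803, plus strand) encodes the mitochondrial chaperonin. Its highest region, at codon 215 of 568, had a pooled signal of 86.1 and rank 1161. It ranked 562 in replicate 2 (signal 53.6) and 6289 in replicate 1 (signal 34.2). The other 2 regions of hsp-60 stood at pooled ranks 19065 and 23260. The latter is in the first intron, 1065 bp upstream of the divergent gene Y22D7AL.10, which encodes the partner chaperonin Hsp10.

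**Figure D2:**
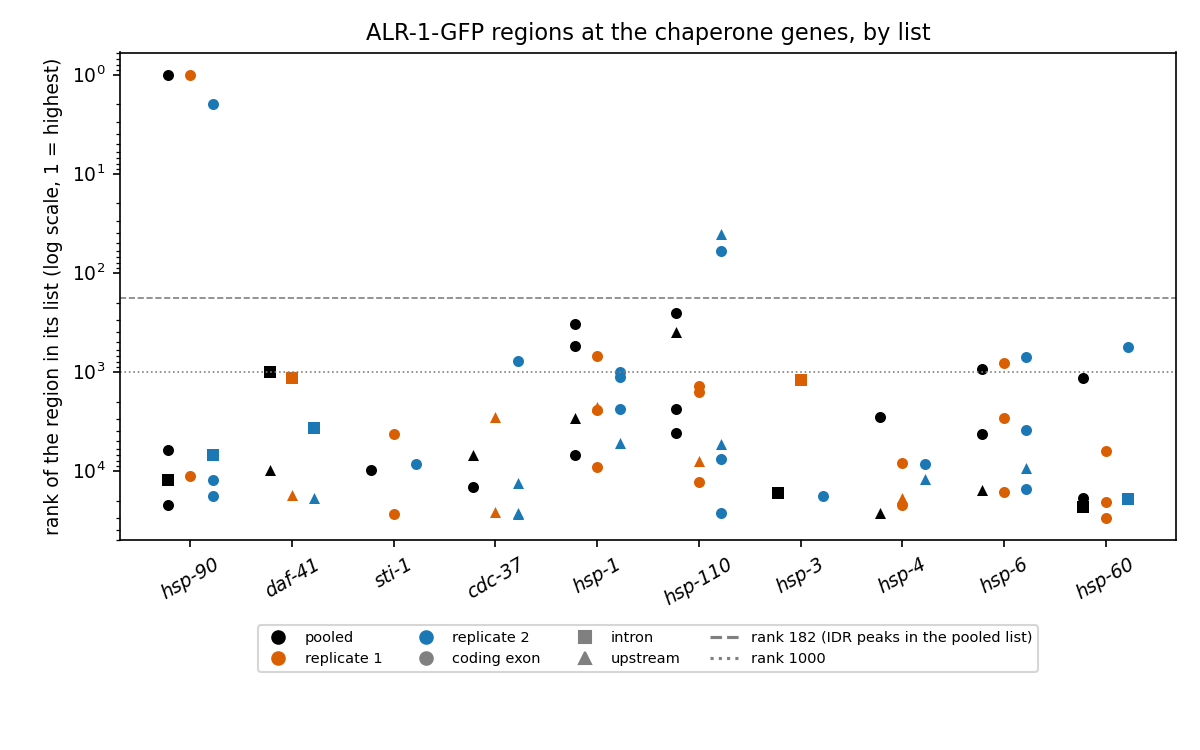
Rank (log scale, 1 the highest) of every region at each chaperone gene in the pooled list and in each replicate's own list, with the marker giving its place in the gene. hsp-90 stands at ranks 1, 1 and 2, hsp-110 passes rank 182 in replicate 2 alone, and the other 8 genes stay below rank 182 in all 3 lists.

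Counted by gene, 1 of the 10 had an IDR peak, beside 1.25% of all protein-coding genes, and that gene is hsp-90, which was chosen for it. The 9 others had 0. The signal just inside the IDR list was 108.18 and just outside it 108.11, and the highest region of the other members, in hsp-110, had 104. A pooled region among the highest 1000 was present at 4 of 10 genes (hsp-90, hsp-1, hsp-110 and hsp-6), or 3 of the 9 without hsp-90, beside 5.65% of all genes. In replicate 1 alone it was 3 of 10 (hsp-90, hsp-1 and hsp-6) beside 5.62%. In replicate 2 alone it was 5 of 10 (hsp-90, hsp-110, hsp-6, hsp-60 and cdc-37) beside 5.54%. All 10 genes had some pooled region, beside 68.8%. These shares rest on genes proposed with earlier results in view and describe these 10 only. The members' gene and upstream stretches are also longer, with a median of 4197 bp against 3527 bp for all protein-coding genes.

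Per length, the members' coding bases held more regions than coding bases elsewhere. Their 16.7 kb of coding sequence held 16 pooled summits, or 9.59 per 10 kb, beside 3.85 per 10 kb over all 24.7 Mb of coding sequence and 2.99 over the 6 chromosomes. Without hsp-90 the density was 8.92. In replicate 1 it was 10.8 against 4.05 over all coding sequence, and in replicate 2 it was 10.2 against 3.65. For the highest 1000 pooled regions, the 5 coding summits of the members gave 300 per Mb and the 4 without hsp-90 gave 275, beside 20.4 per Mb of all coding sequence. Such counts of 4 and 5 are small, and the replicates differed, with 2 summits (137 per Mb) without hsp-90 in replicate 1 and 4 (275 per Mb) in replicate 2.

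Most of the pooled regions had their summit in a coding exon of the member. Of the 26 pooled summits, 16 were in a coding exon of the member itself (61.5%), 4 in its introns and 6 upstream, and 0 had a UTR of the member as their place. Counting coding exons of any gene, the share was 73.1%, beside 31.7% of all pooled regions. Coding sequence makes up 51.8% of the bases of these genes and their upstream stretches, against 24.6% of the genome. Of the members' 6 regions among the highest 1000, 5 were coding, beside 50.3% of the highest 1000 overall. In replicate 1, 18 of 26 were in a coding exon of the member, and in replicate 2, 17 of 29.

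GC content moved with place. The median within 100 bp of the 26 pooled summits was 43.5%, with a range of 32.8% to 52.7%, beside a median of 35.3% over all pooled regions. The members' coding summits had a median of 46.0%, beside 40.8% for all coding regions of the list, and their intron and upstream summits had 36.8%. The highest 1000 regions overall had a median of 40.3%. Of the members' 6 regions in that class, hsp-90, both hsp-1 regions, the hsp-6 region and the coding hsp-110 region were above it, at 41.3% to 51.2%, and the upstream hsp-110 region was below it at 39.8%. What GC content or coding position contributes to the ranks was not tested.

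**Figure D3:**
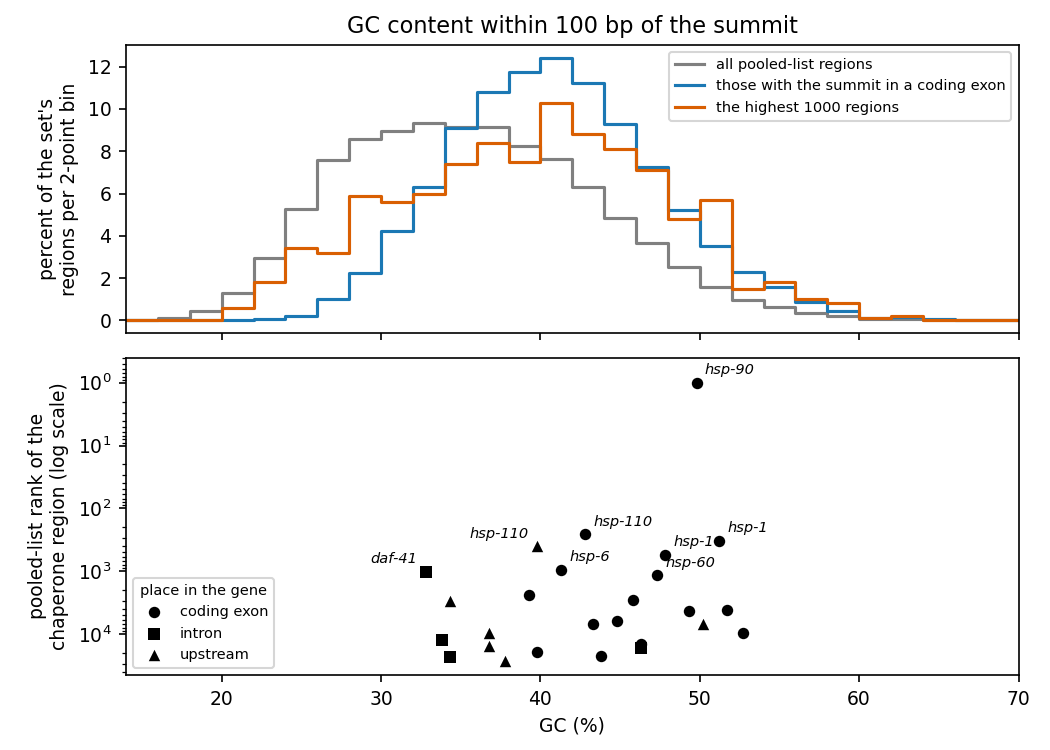
Upper panel: percent of pooled-list regions in each 2-point bin of GC content, for all regions, for those with a coding summit and for the highest 1000. Lower panel: GC content and pooled rank (log scale) of the 26 regions at the chaperone genes; coding summits lie mainly above 40% GC and the daf-41 intron region is the lowest at 32.8%.

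Homeodomain letters were present at some of the summits and absent from others. Each motif was searched within 150 bp of the summit, and each is its own reverse complement apart from ATTA, for which both strands were counted. TAATTA was present at 2 of 26 regions, the hsp-90 intron region of rank 12285 and the hsp-1 region of rank 6866, beside 14.9% of all pooled regions and 9.16% of those in coding exons. The form in which TAAT and ATTA are separated by 3 bases was at 0 of 26, beside 1.75% of all and 1.16% of coding ones. ATTA in either orientation, a search added after seeing the data and overlapping with both forms, was at 18 of 26 regions, beside 93.1% of all and 88% of coding ones, with a median of 2 per region against 4 over all regions and 3 over coding ones. It was absent from the hsp-90 region of rank 1, from both hsp-1 regions among the highest 1000 and from the hsp-60 region of rank 1161. The other 3 regions among the highest 1000 held it, with 2 matches at hsp-110 rank 256, 1 at hsp-110 rank 396 and 2 at hsp-6 rank 943. The daf-41 intron region held 10.

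The heat shock repeats occurred at some of the regions. GAANNTTC was at 10 of 26 regions, beside 19.3% of all pooled regions and 20.0% of coding ones, and TTCNNGAA was at 7 of 26, beside 19.6% and 21.3%. At hsp-1 the region of rank 328 held GAANNTTC and that of rank 547 held TTCNNGAA. Neither form was within 150 bp of the rank 1 summit in hsp-90 or of any hsp-110 summit. These are matches of letters in a window.

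The replicates found many of these regions in common but ordered them differently. Of the 26 pooled summits, 15 had a summit within 200 bp in both replicates (57.7%, beside 43.5% of all pooled regions), 9 in replicate 2 alone and 2 in replicate 1 alone. Of the members' 6 regions among the highest 1000, 5 were found in both, beside 97.9% of the highest 1000 overall. The remaining region, at hsp-110, had its nearest replicate 1 summit 219 bp away. The paired replicate summits were a median of 44 bp apart. Among the 15, the rank was higher in replicate 1 for 9 and in replicate 2 for 6, and the larger rank was a median of 4.18 times the smaller. The ranks were within 2-fold of each other at 5 of them. Only the hsp-90 region, which was chosen for its rank, was among the highest 1000 of both replicates, while 8 regions were among the highest 1000 of at least 1. These rank gaps and counts were not computed over all pooled regions. They describe the regions of these genes and do not set them apart from the rest of the lists. With 2 replicates of 1 group there is no spread against which to set these gaps.

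**Figure D4:**
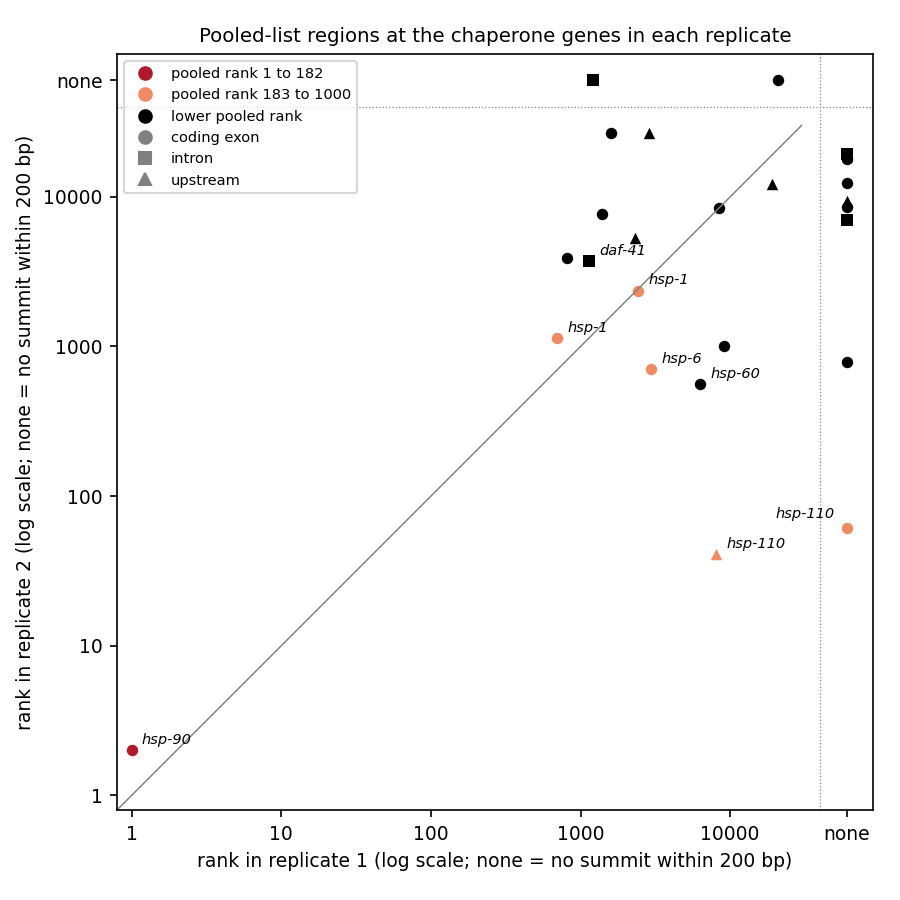
Rank in replicate 1 against rank in replicate 2 (log scales) for the 26 pooled regions at the chaperone genes; points at "none" had no summit within 200 bp in that replicate, and the line marks equal ranks. hsp-90 stands alone at ranks 1 and 2, and both labelled hsp-110 regions stand high in replicate 2 only.

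The surroundings of the genes also held regions. In the 10 kb on each side of a member, outside its own stretch, there were 2 to 11 pooled regions. The best region of the member ranked above the best of its flanks at 7 of 10 genes, the exceptions being daf-41, sti-1 and hsp-3. One of the 7 is hsp-90, which was chosen for its rank. The same share over all protein-coding genes was not computed, so the count describes these 10 only. Exact repeats of 36 bases were not a general feature of the regions. Copies that differ at some bases were not searched for. In 24 of the 26 pooled regions every stretch of 36 bases occurred once in the genome, and the exceptions were the hsp-1 region of rank 6866 at 91.5% and the hsp-60 region of rank 19065 at 99.1%.

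Across 8 wider lists of chaperone genes, cochaperones and stress regulators, 4 of the 6 other genes with a pooled region among the highest 1000 were ER folding genes. The lists hold 58 genes, of which 48 are not members. Of these 48, 38 had a pooled region (79.2%, beside 68.8% of all protein-coding genes), 6 had one among the highest 1000 (12.5%, beside 5.65%) and 2 had an IDR peak, beside 1.25% of all genes. In the replicates' own lists 7 (replicate 1) and 6 (replicate 2) had one among the highest 1000. In the ER folding list 4 of 10 had a region among the highest 1000, and none of the 4 is a BiP gene. They are crt-1, cnx-1, ero-1 and enpl-1. The count for this list was 2 in replicate 1 and 4 in replicate 2. In neither count is enpl-1, whose best ranks were 1009 in replicate 1 and 1526 in replicate 2. The 4 of replicate 2 thus include another gene of the list. In the list of 9 Hsp90 cochaperones the pooled count was 0, with 2 for replicate 1 and 1 for replicate 2. In that of 12 small heat shock proteins the pooled count was 1, with 3 for replicate 1 and 0 for replicate 2. The pooled counts of these lists are near the 5.65% of all genes. The replicate 1 count of small heat shock genes takes 1 region, of rank 122, for 2 genes. The replicate 1 count of 7 above does the same. Of the 12 small heat shock genes 6 had no pooled region at all and 50% had one, beside 68.8% of all protein-coding genes. Whether sequence at these genes occurs once in the genome was not examined.

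The crt-1, ero-1 and enpl-1 regions had similar ranks in both replicates. crt-1 encodes calreticulin, a calcium-binding lectin chaperone of the ER, and its summit in a coding exon, 640 bp into the gene, had pooled rank 73 (signal 120), rank 375 in replicate 1 and rank 425 in replicate 2. ero-1, the oxidase that feeds disulfide bond formation, had pooled rank 193 (signal 108), rank 462 in replicate 1 and rank 489 in replicate 2, and lies just outside the IDR list. enpl-1, the ER Hsp90, had pooled rank 745 and ranks of 1216 in replicate 1 and 1526 in replicate 2, but that summit lies 1031 bp upstream, in a coding exon of imp-2.

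The rest of the high regions stood high in a single replicate. cnx-1, which encodes calnexin, had pooled rank 484, rank 17808 in replicate 1 and rank 55 in replicate 2. atf-4, a bZIP regulator of the integrated stress response, had an IDR peak at pooled rank 138 (signal 112), rank 4220 in replicate 1 and rank 38 in replicate 2. sip-1, a small heat shock protein of embryos, had pooled rank 643, rank 102 in replicate 1 and rank 7461 in replicate 2. Apart from enpl-1 the 6 summits were in coding exons of their own genes.

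**Figure D5:**
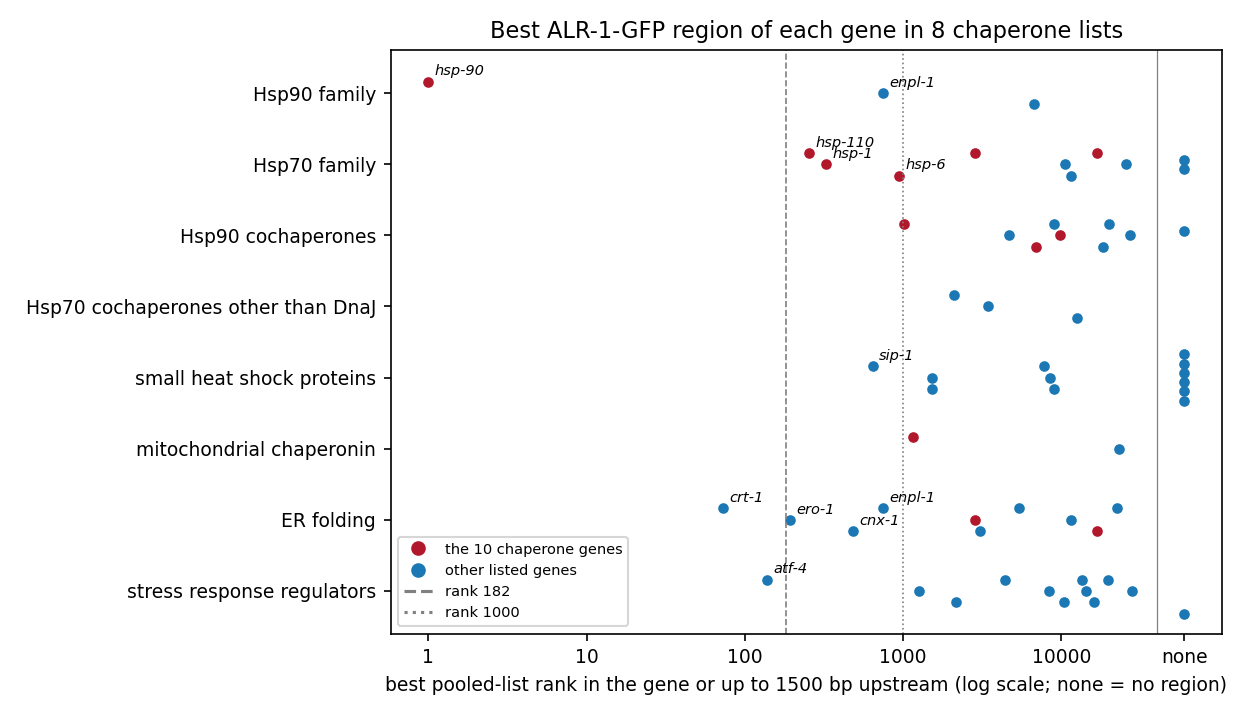
Best pooled-list rank (log scale) in the gene or up to 1500 bp upstream for each gene of 8 chaperone lists, with the 10 chaperone genes in red and other listed genes in blue; a gene in 2 lists is drawn in both. crt-1 and atf-4 are the only listed genes besides hsp-90 to the left of rank 182.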

How the data were processed

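Only region lists were analysed. The sample notes deposited by the authors say that each replicate's regions were made from its alignments with a control, the pooled list from both replicates' alignments, and the IDR list from these. The build is ce11. Aligner, caller settings and IDR cut-off were not given in the sources used here. The signal column deposited by the authors is printed as each region's own value and used to rank regions within a list. Its scale is not stated, and depth and counting error are unknown. The other column used is the deposited summit offset.

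All regions lie within the chromosomes of WBcel235, the same assembly, and genes came from Ensembl release 115. A summit was placed in the member's coding exon, UTR, other exon or intron, in that order. Summits within 200 bp were matched between lists, and GC was counted within 100 bp. The members and lists were chosen with earlier results of these data known. Named genes are the members, listed genes with an IDR peak or a region among the highest 1000, and genes sharing such a member region. W08F4.3, haf-2, Y22D7AL.10, imp-2, ztf-8 and toc-1 were named after their values were seen. Of the list entries, 4 were not in the annotation. trap-1 was left out after the data were seen, because in the worm it names a translocon subunit. Assignment and matching were tested on simulated data. Alternatives covered upstream length, each replicate alone, number of regions, matching distance and GC window. Python 3.11.15, numpy 2.4.6 and matplotlib 3.10.9 were used.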

Additional observations from a re-analysis of the deposited data

How the results depend on the processing

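Of 49 alternative values for 8 results, 36 stayed within 1.5 times the count reported or, for shares, GC and the rank of hsp-90, within the SD of the replicates, and 13 moved further. That SD rests on 2 replicate values, which are themselves among the alternatives. The counts therefore describe the settings tried and measure no spread. Taking the 500 highest pooled regions in place of the IDR list gave 3 members with a peak in place of 1. Requiring replicate summits within 100 bp left 9 of 26 pooled summits found in both replicates, and matching to 1 replicate alone gave 17 (replicate 1) and 24 (replicate 2). The coding exon share of 61.5% was 72.7% with 500 bp upstream, 48.5% with 3000 bp, 80% with the gene alone and 73.1% with coding exons of any gene. In the replicates' own lists it was 69.2% (replicate 1) and 58.6% (replicate 2). Median GC of 43.5% was 45.3% both with 500 bp upstream and with the gene alone, and 45% within 250 bp of the summit. It was 46.8% (replicate 1) and 44.8% (replicate 2) in the replicates' own lists. The best rank of hsp-90 was 1 or 2 in each replicate alone. Members with a region among the highest 1000 numbered 3 and 5 in the replicates alone, 3 with 500 regions and 6 with 2000. The shares of all protein-coding genes with 500 and with 2000 regions were not computed. The member counts at those settings therefore have no value to be read beside. No paired analysis was possible because there is 1 group of samples. Read depth is not known, and a region's absence from a list is limited by its fixed length of 30000.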
